A study of Rattus norvegicus with 60 samples.

Results

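High-numbered miRNA arms were followed in the dorsal root ganglion, the cluster of sensory neuron cell bodies beside the spinal cord. They were chosen by name and count, as mature arms whose number after rno-miR- is 3000 or higher and whose raw count was at least 5 in at least 5 of the 20 small RNA libraries. This gave 114 arms of 74 hairpins, out of 183 arms with such a number and 879 mature arms in all. The counts of the 20 libraries thus chose the members, and their levels are given as a description.

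The libraries came from SD rats of 2 groups, with 10 CFA and 10 control libraries. CFA rats had received 0.1 mL of complete Freund's adjuvant, killed mycobacteria in oil that cause a lasting local inflammation, under the skin of the foot on 1 side. Control rats had no treatment, so no vehicle injection was measured. The labels give no sex, age or time after injection, and do not say which ganglia were taken or whether ganglia were pooled. Each library sampled the whole tissue, so fewer cells of a type and less RNA per cell cannot be told apart.

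A miRNA gene is transcribed as a hairpin, and each side of the hairpin can give a mature arm, named 5p or 3p. The mature arm guides an Argonaute protein to mRNAs that pair with its seed, bases 2 to 8, which lowers their translation and stability. Numbers were given in order of discovery, so conserved, abundant families hold low numbers and high numbers mark late entries that deep sequencing brought in. Most of the 114 arms carry names known from rat or from rat and mouse, but miR-3064, miR-3065, miR-3074, miR-3120 and miR-3591 are numbers that human miRNAs share, so the description as rodent-specific holds in part.

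The libraries held between 3360055 and 13097872 counts. Sensory neuron arms (the miR-183, miR-96 and miR-182 cluster, 6 arms) summed to between 24672 and 63633 CPM in CFA and between 40847 and 59475 CPM in control libraries, so these defining arms were abundant in every library. Controls 1, 2 and 3 stood apart: hairpin features took 0.938%, 0.414% and 0.598% of their counts, against 0.0833% to 0.343% in the other libraries, with CFA 8 the highest of these. In CFA 8, the liver arms of miR-122 summed to 726 CPM, against at most 3.32 CPM in controls. Their median was 3.61 CPM in CFA and 2.28 CPM in control libraries. No 2 libraries of a group agreed within sampling noise.

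The sequences of the most abundant members show what kind of arms these are, and are printed from RefSeq (rat build GRCr8), written 5′ to 3′ with the seed in capitals. RefSeq held the hairpin of 101 of the 114 members and the exact mature arm of 60.
miR-3068-5p: uUGGAGUUcaugcaaguucuaacca
miR-3068-3p: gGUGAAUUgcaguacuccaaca
miR-6331-5p: cUUUGGUGgcuuaguucuuugugc
miR-3559-5p: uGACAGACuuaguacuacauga
miR-3559-3p: aUGUAGUAcugagucugucgug
miR-3473-3p: uCUAGGGCuggagagauggcua
miR-6322-3p: uGUCUGUAccacauggcacggu
The seeds of these 7 arms all differ. Across the 60 annotated arms there were 60 distinct seeds. Their median length was 22 bases (18 to 25), as in 284 conserved arms with a RefSeq sequence. Their median GC content was 52.4%, against 45.5% in the conserved arms, and 26 of 60 (43.3%) began with U, a first base that Argonaute favours, against 109 of 284 (38.4%).

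For miR-6324 and miR-6331, RefSeq annotates only the other side of the hairpin from an arm that was abundant here. The hairpin of miR-6324, on chromosome 11, is shown with its annotated 3p arm in capitals.
miR-6324 hairpin: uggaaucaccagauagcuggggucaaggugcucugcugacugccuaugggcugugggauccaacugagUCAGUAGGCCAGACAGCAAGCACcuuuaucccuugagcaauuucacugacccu
The 5p feature of this hairpin averaged 133 CPM and the annotated 3p arm 7.82 CPM over the 20 libraries, and the 5p share of reads was 94.5% ± 1.39 in CFA and 94.5% ± 0.452 in control libraries (SD, n = 10 each). The deposited files give no sequence for their features, so the exact ends of the counted 5p arm are not known here. The miR-6331 hairpin lies on chromosome 6 within 10 kb of 17 other miRNAs, among them miR-134, miR-154 and miR-382 of the imprinted Dlk1-Dio3 region, a cluster expressed in neurons. Its 3p feature, which RefSeq does not annotate, averaged 88.3 CPM and its annotated 5p arm 66.1 CPM.

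Levels were low beside those of conserved miRNAs. The members had a median of mean levels of 1.42 CPM, against 42.3 CPM for 324 arms of conserved families, and 3 of 114 members reached 100 CPM, against 130 of 324 conserved arms. In all, 45 members averaged under 1 CPM. Of 101 members placed by RefSeq, 16 lie on chromosome 1, 14 on chromosome 10, 13 on chromosome 6 and 10 on the X chromosome. The 10 most abundant members carried 74.5% of the summed level, and both arms of miR-3068 together 30.0%. CPM values are scaled by TMM factors and compare 1 arm across libraries. Mature arms have nearly the same length, so levels of different arms were set side by side without a length correction.

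**Figure D1:**
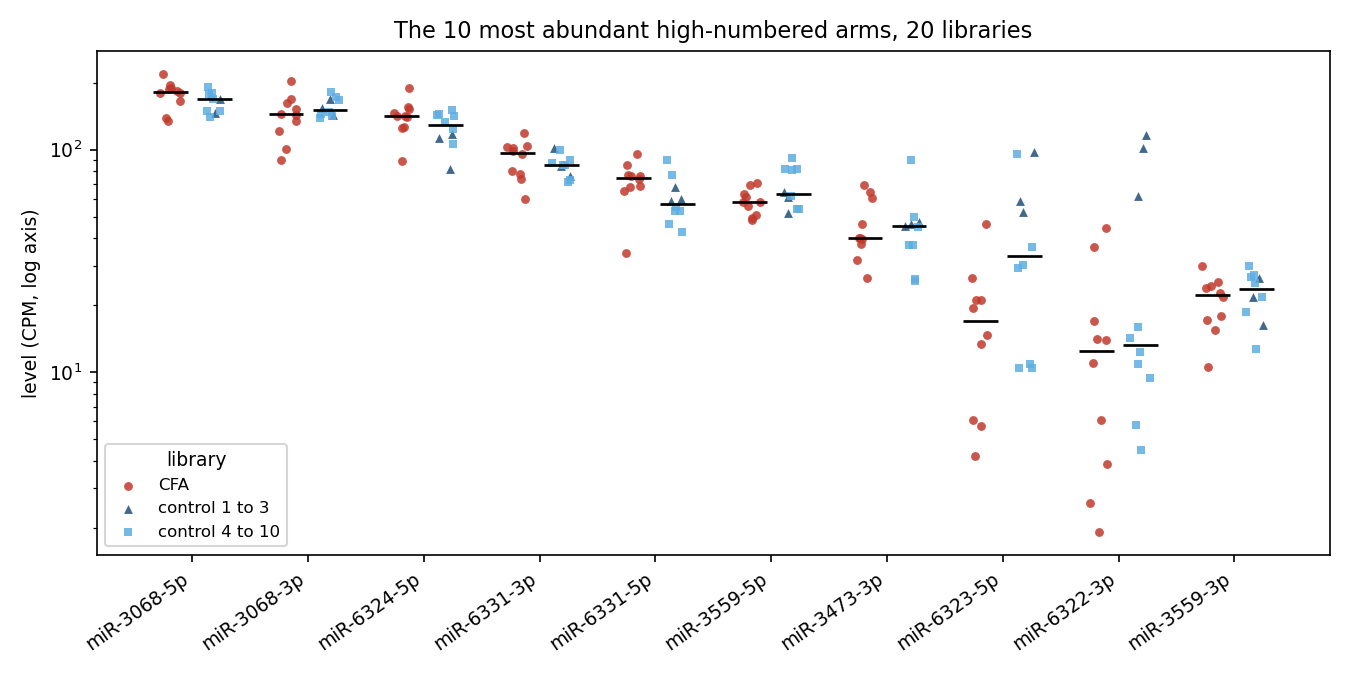
Level of the 10 most abundant high-numbered arms in each library, in CPM on a log axis, with CFA libraries left of control libraries and the median of each group as a bar. Both arms of miR-3068 lie within a narrow band in all libraries, whereas miR-6322-3p stands at 62.1 to 116 CPM in controls 1 to 3 and between 1.92 and 44.4 CPM elsewhere.

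The most abundant arms had like levels in both groups. miR-3068-5p lay between 135 and 219 CPM in CFA libraries, with a median of 181 CPM, and between 139 and 191 CPM in controls, with a median of 169 CPM. Its partner miR-3068-3p lay between 89.6 and 204 CPM in CFA (median 144) and between 138 and 182 CPM in controls (median 151). The groups overlapped for both arms, and the CFA libraries spread more widely for both. miR-6324-5p ran from 89.0 to 190 CPM in CFA (median 142) and from 81.7 to 150 CPM in controls (median 129). miR-6331-3p ran from 60.2 to 119 CPM in CFA (median 96.9) and from 71.4 to 102 CPM in controls (median 85.5). For these arms too, each group's median lay inside the range of the other group.

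miR-6331-5p ran from 34.3 to 95.2 CPM in CFA (median 74.8) and from 42.6 to 89.8 CPM in controls (median 56.8), with CFA 8 the lowest of all libraries. miR-3559-5p ran from 48.3 to 70.5 CPM in CFA (median 58.1) and from 51.9 to 91.5 CPM in controls (median 63.1), and its partner miR-3559-3p from 10.5 to 30.02 CPM in CFA (median 22.2) and from 12.7 to 30.1 CPM in controls (median 23.5). miR-3473-3p ran from 26.4 to 69.4 CPM in CFA (median 40.0) and from 25.7 to 89.4 CPM in controls (median 45.1), with control 7 the highest. For none of these arms did the groups separate, and no single member had groups that did not overlap (0 of 114, against 0 of 879 mature arms, 0%).

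The other members among the first 10 varied far more. miR-6323-5p ran from 4.21 to 46.3 CPM in CFA (median 17.1) and from 10.4 to 97.3 CPM in controls (median 33.4). miR-6322-3p, a 3p arm from chromosome 12, ran from 1.92 to 44.4 CPM in CFA (median 12.4) and from 4.48 to 116 CPM in controls (median 13.3). In both, controls 1 to 3 were among the 4 highest controls and CFA 8 was the highest CFA library; control 5 reached 95.2 CPM for miR-6323-5p but 10.9 CPM for miR-6322-3p.

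Relative to conserved miRNAs, the question was whether the members as a group took a different share of the reads after CFA. Their summed counts, scaled as CPM of the conserved arms' counts, averaged 1066 ± 150.3 in CFA and 1314 ± 404 in control libraries (SD, n = 10 each), a difference of -247 that was not tested. Without controls 1 to 3 the averages were 1066 in CFA and 1112 in controls, a difference of -45.8. Controls 1, 2 and 3 stood at 2249, 1386 and 1717, above every other library. The CFA libraries ran from 719.6 to 1238 and controls 4 to 10 from 891.5 to 1335, and CFA 3 was the lowest. With the 10 most abundant members left out, the remaining 104 summed to 244 ± 57.0 in CFA and 380 ± 222 in controls, and to 268 ± 79.7 in controls 4 to 10.

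**Figure D2:**
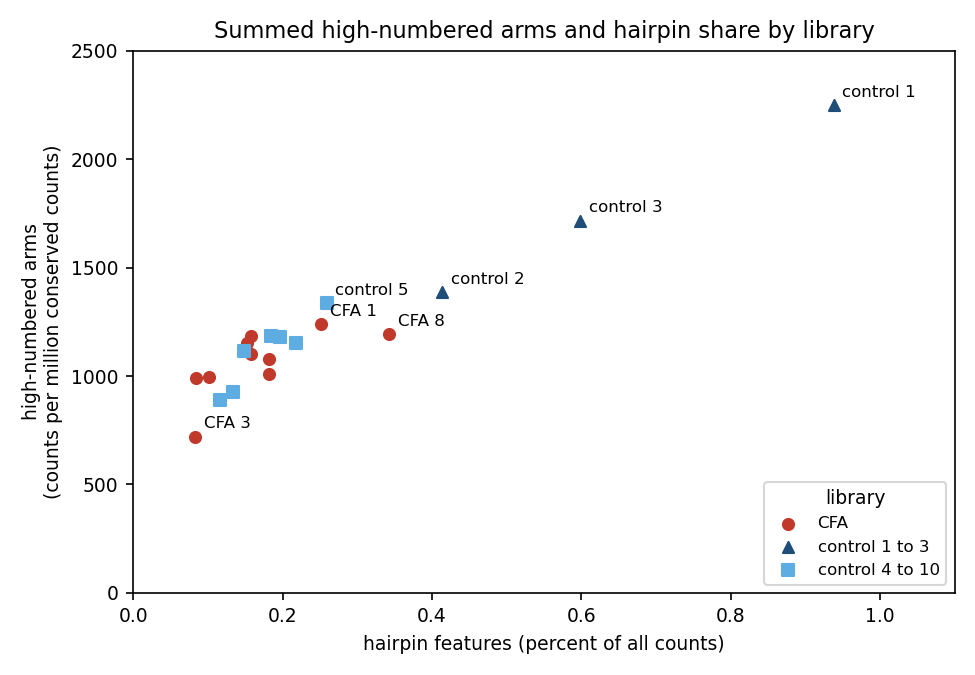
Summed counts of the high-numbered arms as CPM of the conserved counts (vertical axis, from 0) against the percentage of counts in hairpin features (horizontal axis), 1 point per library, CFA libraries as circles and control libraries as triangles and squares. Controls 1, 2 and 3 lie highest on both axes, and CFA 3 lies lowest on both.

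Other measures are set beside the summed level, and no association was computed. Controls 1, 3 and 2, in this order, had the highest summed level and the highest share of hairpin features. The part of the hairpin share, and of the marker arms below, in the result was not tested. The arms of a testis-abundant X-linked cluster (22 arms, none at 0 in all libraries) summed to between 9.88 and 29.7 CPM in CFA libraries, between 126 and 157 CPM in controls 1 to 3, and between 17.6 and 172 CPM in controls 4 to 10, where control 9 was the highest. Control 9 had the lowest summed level of the members among controls, at 891.5. Muscle arms (14 arms, none at 0 in all libraries) summed to between 10713 and 16585 CPM in CFA, between 9704 and 12945 CPM in controls 1 to 3 and between 11909 and 24141 CPM in controls 4 to 10. Blood cell arms (12 arms, none at 0 in all libraries) summed to between 1278 and 4794 CPM in CFA, with CFA 3 the highest, and between 1102 and 2933 CPM in controls. Epithelial arms (16 arms, none at 0 in all libraries) summed to between 242 and 565 CPM in CFA and between 208 and 909 CPM in controls.

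The number of members detected also differed among libraries. A read was found for 107.1 ± 6.59 of 114 members in CFA and for 111.2 ± 3.01 in control libraries. Scaled by the hypergeometric expectation to the lowest total of 3360055 counts, this was 98.5 ± 8.42 in CFA and 106.6 ± 6.18 in controls, and 104.7 ± 6.44 in controls 4 to 10. CFA 9 was the lowest at 79.6 and control 1 the highest at 113.0, and the groups overlapped. Since the rule asked for counts over all 20 libraries, these numbers are a description.

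On the TMM-scaled CPM, a subset of the members stood higher in controls 1 to 3. Summed CPM of all members averaged 1338 in controls 1 to 3 and 1027 in controls 4 to 10. Scaled to the conserved counts, the averages were further apart, at 1784 and 1112. How much of either gap the subset carried was not computed. Among members with a mean of 2 CPM or more, 16 of 51 (31.4%) were at least 2-fold higher in the mean of controls 1 to 3 than in the mean of controls 4 to 10. This ratio was reached by 8 of 246 conserved arms (3.25%), 18 of 235 other arms (7.66%) and 69 of 131 hairpin features (52.7%) at that level. The mean of 2 CPM includes controls 1 to 3, so some rare members reached it only through those libraries, which raises their share. For example, miR-3543-1-5p averaged 1.76 CPM in CFA and 1.89 CPM in controls 4 to 10. At any level the ratio was reached by 36 of 114 members (31.6%) and 21 of 324 conserved arms (6.48%). The count rule for members also used those libraries. The other members at that level had ratios between 0.479 for miR-6333-5p and 1.65 for miR-3084b-1-3p, and 19 of the 51 lay within 20% of a ratio of 1. Among the abundant arms the ratio was 0.987 for miR-3068-5p, 0.995 for miR-3068-3p, 1.04 for miR-6331-3p, 1.04 for miR-3473-3p, 0.772 for miR-6324-5p and 0.82 for miR-3559-5p. The median ratio was 1.103 over the 51 members, 0.874 over the conserved arms and 2.27 over the hairpin features. These are ratios between libraries of 1 group, given as a description with no test.

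**Figure D3:**
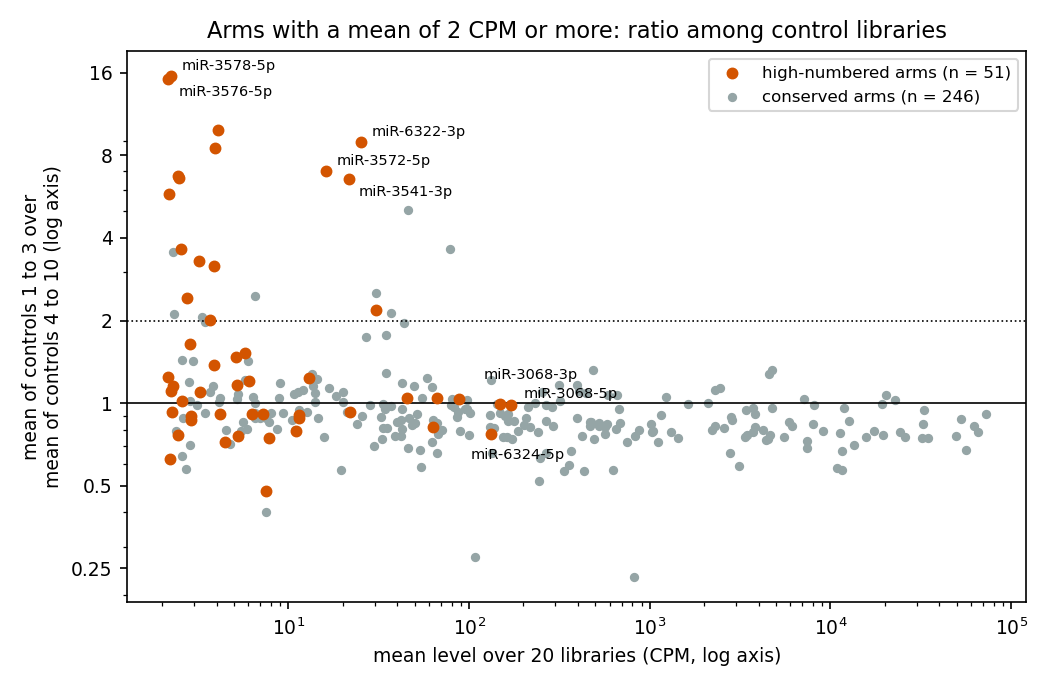
Ratio of the mean of controls 1 to 3 to the mean of controls 4 to 10 (vertical log axis) against the mean level in CPM over 20 libraries (horizontal log axis), for arms with a mean of 2 CPM or more. Members are orange and conserved arms grey, the dotted line marks a ratio of 2, and 16 of 51 members lie on or above it.

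Of these 16 arms, miR-3541-3p and miR-3572-5p stood out by level and are named after their values were seen. miR-3541-3p, an arm of 18 bases made only of C and U through its seed, is shown because its level spread widely among controls.
miR-3541-3p: uCCCUCCCccucacugca
It stood at 105, 37.4 and 75.2 CPM in controls 1, 2 and 3, between 1.64 and 30.01 CPM in controls 4 to 10, and between 2.30 and 37.3 CPM in CFA libraries. miR-3572-5p stood at 69.6, 34.8 and 57.5 CPM in controls 1, 2 and 3, between 4.26 and 14.1 CPM in controls 4 to 10, and between 3.07 and 33.5 CPM in CFA. In both arms CFA 8 was the highest CFA library. Over the 16 arms, CFA 8 lay above the median of the other CFA libraries in 15 and CFA 1 in 14, and the highest of all 20 libraries was control 1 in 11 and control 3 in 5. For 9 of the 16 the mature arm was not among the RefSeq sequences. Over members of any level, the ratio of 2 was reached by 14 of 60 annotated arms (23.3%), and by 19 of 41 (46.3%) whose hairpin but not that arm is annotated.

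The comparison of CFA with control asked which small RNAs differ in ganglia of injected rats. Of 50 members with enough reads to be tested, 0 were called by edgeR (quasi-likelihood F test, Benjamini-Hochberg adjusted p under 0.05), and over all 692 small RNA features tested 0 were called (0%). An unadjusted p under 0.05 was found for 8 of the 50 members, against 163 of 692 features (23.6%; 10.1% with higher and 13.4% with lower values in CFA) and 88 of 539 mature arms (16.3%). Of the 8 members, 1 had higher and 7 had lower values in CFA, against 69 arms with higher values (12.8%) and 19 with lower values (3.53%) among the 539. DESeq2 called 32 features (4.62%), the fit with replicate numbers as a block 12 (1.73%), and upper-quartile factors and sample quality weights 4 each (0.578%), with 0 members in any of them. The median log2 fold change, CFA over control, was -0.13 over the 50 members, against 0.14 over 249 conserved arms, 0.11 over 539 arms and 0.024 over all 692 features. It lay below 0 for 28 of the 50 members, against 181 of the 539 arms (33.6%). Hairpin features had a median of -0.92.

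The gap to the conserved arms was smaller without controls 1 to 3. The members' median minus the conserved median was -0.27 with all libraries and -0.069 without those 3. The median without them was 0.023 over 52 members, with 25 below 0, against 0.092 over 253 conserved arms; of 550 arms, 197 lay below 0 (35.8%). Again edgeR called 0 of 709 features (0%). The unadjusted p was under 0.05 for 68 features (9.59%; 4.37% higher and 5.22% lower in CFA) and 42 of 550 arms (7.64%; 5.64% higher and 2% lower). Of the members 3 passed it, miR-3577-3p and miR-3550-3p with higher and miR-3559-5p with lower values in CFA. Of 50 members in both fits, 13 had log2 fold changes of opposite sign. With all libraries 12 members lay below -0.7, and 11 of these were at least 2-fold higher in controls 1 to 3 than in controls 4 to 10. When those controls were left out 3 lay there. Scaling by TMM over conserved arms put the median of all arms at -0.012 and that of the members at -0.24, or at -0.053 without controls 1 to 3.

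**Figure D4:**
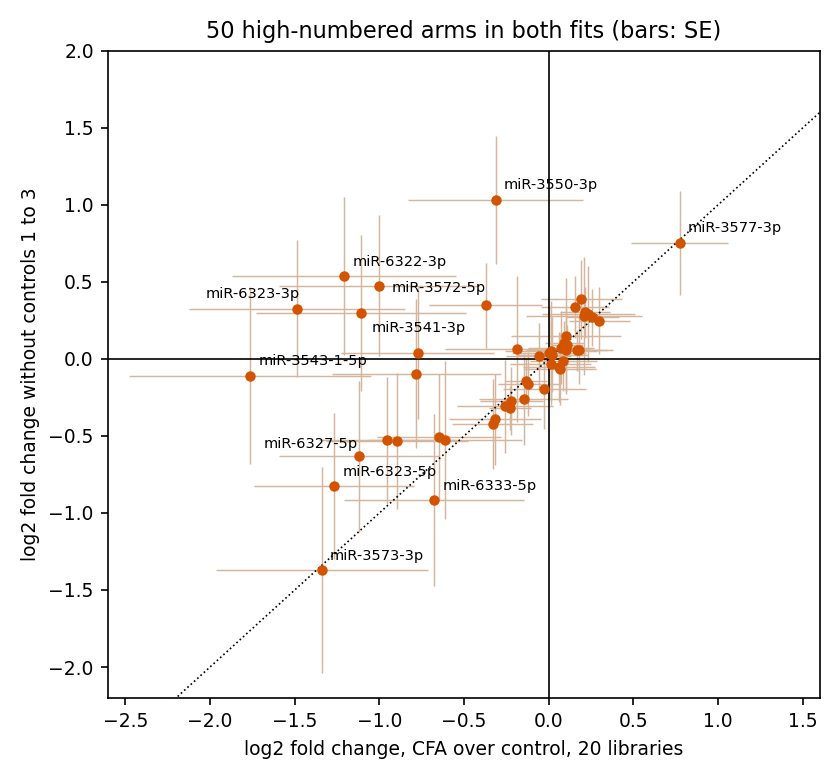
Log2 fold change of CFA over control for 50 high-numbered arms, with all 20 libraries (horizontal axis) and without controls 1 to 3 (vertical axis), bars giving the SE of each fit. Points on the dotted line have equal values, and miR-6322-3p, miR-6323-3p, miR-3541-3p and miR-3572-5p cross from below 0 to above 0.

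Among members with lower values in CFA and a mean of at least 2 CPM, miR-6323-5p had the smallest p, at 17.8 ± 12.5 CPM in CFA and 43.1 ± 32.6 CPM in controls (log2 fold change -1.27, SE 0.47, edgeR adjusted p = 0.158). Its log2 fold change was -0.82 (SE 0.47) when controls 1 to 3 were left out. Its partner miR-6323-3p ran from 0.324 to 4.48 CPM in CFA (median 1.81) and from 0.83 to 29.1 CPM in controls (median 1.93), where control 1 was the highest. Its log2 fold change was -1.48 (SE 0.64, edgeR adjusted p = 0.173), and 0.33 without controls 1 to 3. miR-3543-1-5p averaged 1.76 ± 1.85 CPM in CFA and 6.13 ± 8.40 CPM in controls, with controls 1 and 3 at 20.4 and 23.3 CPM. Its log2 fold change was -1.76 (SE 0.71, edgeR adjusted p = 0.166), and -0.11 without controls 1 to 3. For the last pair of arms, controls 1 and 3 stood above every other library.

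miR-6327-5p averaged 1.73 ± 1.38 CPM in CFA and 3.78 ± 2.56 CPM in controls (log2 fold change -1.12, SE 0.47, edgeR adjusted p = 0.166), and miR-5132-5p 2.57 ± 1.35 CPM in CFA and 4.78 ± 2.98 CPM in controls (log2 fold change -0.90, SE 0.42, edgeR adjusted p = 0.195). These log2 fold changes were -0.63 and -0.53 with controls 1 to 3 left out. The groups overlapped for both arms. miR-6322-3p, at 15.1 ± 14.5 CPM in CFA and 35.3 ± 42.2 CPM in controls, had a log2 fold change of -1.21 (SE 0.66), which was 0.54 (SE 0.51) without controls 1 to 3.

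Among members with higher values in CFA, miR-3577-3p had the smallest p. It ran from 0.956 to 4.85 CPM in CFA (median 2.75) and from 0.55 to 2.49 CPM in controls (median 1.73), and 5 of 10 CFA libraries lay above every control. Its raw counts were between 4 and 59. The log2 fold change was 0.77 (SE 0.29, edgeR adjusted p = 0.158), and 0.75 (SE 0.34, edgeR adjusted p = 0.462) without controls 1 to 3. In the fit with all libraries it was the 1 member with a log2 fold change above 0.7, and without controls 1 to 3 it was 1 of 2. Over all 37 fits run the value lay between 0.49 and 0.98 and the adjusted p between 0.0823 and 0.773. The ratio of controls 1 to 3 to controls 4 to 10 was 0.928 for this arm. Its hairpin was not in the RefSeq table used, so no sequence is printed.

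The other arms with higher values and the smallest p were close to their controls. miR-3102-3p averaged 12.7 ± 3.22 CPM in CFA and 10.3 ± 3.06 CPM in controls (log2 fold change 0.30, SE 0.18), and miR-3072-3p 13.96 ± 2.61 CPM in CFA and 12.1 ± 2.78 CPM in controls (0.21, SE 0.15). miR-6331-5p had a log2 fold change of 0.26 (SE 0.16) and miR-6324-5p of 0.17 (SE 0.13), the second of which was 0.055 without controls 1 to 3. For the 2 arms of miR-3068 the log2 fold changes were 0.11 (SE 0.098) and -0.14 (SE 0.12), both within 2 SE of 0.

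A single library also decided the values of miR-3573-3p and miR-6333-5p, named after their values were seen. Control 5 stood at 80.1 CPM for miR-3573-3p, against at most 23.5 CPM in the other controls and 1.59 to 25.9 CPM in CFA. The log2 fold change of miR-3573-3p was -1.34 (SE 0.63, edgeR adjusted p = 0.195), and -0.51 (SE 0.51) without control 5. For miR-6333-5p control 5 stood at 41.8 CPM, against at most 8.37 CPM in the other controls and 0.891 to 16.1 CPM in CFA. Its log2 fold change was -0.68 (SE 0.53), and 0.054 (SE 0.43) without control 5. miR-3550-3p, also named after its values were seen, had a log2 fold change of -0.31 (SE 0.52) with all libraries. It was 1.03 with controls 1 to 3 left out (SE 0.42, edgeR adjusted p = 0.441).

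Some members are antisense to other miRNA genes: in RefSeq, 23 of 101 placed members lie on the opposite strand of another miRNA hairpin. Pairing could be measured only for those of the 23 whose mature arm RefSeq annotates. Of these, miR-3120-3p is complementary to an arm of the other strand over at most 5 bases. The other 9 pair with an arm of the other strand over 18 to 22 bases. The sources used here do not say whether the counting used strand, and without it reads of such pairs cannot be told apart. Both pairs shown combine a rare member with an abundant arm.
miR-3065-5p: uCAACAAAaucacugaugcu
miR-338-3p: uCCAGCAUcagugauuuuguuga
miR-3543-1-5p: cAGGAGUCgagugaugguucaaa
miR-434-3p: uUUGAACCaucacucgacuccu
Capitals mark the seeds. miR-3065-5p is complementary to miR-338-3p over 20 bases, and miR-3543-1-5p to miR-434-3p over 22 bases.

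Members and partners differed widely in level, and their highest library was the same in some pairs and not in others. miR-338-3p averaged 1623 CPM over the 20 libraries and miR-3065-5p 5.25 CPM, between 2.74 and 7.24 CPM in CFA and between 3.36 and 6.97 CPM in controls. miR-338-3p was highest in CFA 3 at 3136 CPM, where miR-3065-5p stood at 6.90 CPM, near its own highest value of 7.24 CPM in CFA 10. miR-434-1-3p, the feature of the miR-434 hairpin in the table, was about level among controls, with a ratio of controls 1 to 3 to controls 4 to 10 of 0.929, whereas the ratio for miR-3543-1-5p was 8.47. In CFA 8, where the liver arms miR-122-5p and miR-122-3p stood at 719 and 6.74 CPM, miR-3591-5p on the opposite strand stood at 0.465 CPM. miR-3553-5p, opposite the sensory neuron miRNA miR-183, averaged 0.553 CPM beside 20205 CPM for miR-183-5p and 28.3 CPM for miR-183-3p. Which partner arm these members pair with was not measured. miR-3556a-5p, opposite miR-29a, averaged 0.677 CPM beside 8153 CPM for miR-29a-3p. Over the 23 members on an opposite strand, some shared their highest library with an arm of the partner hairpin. These included miR-3576-5p with miR-539-5p (control 1, 12.5 and 89.5 CPM) and miR-3571-3p with miR-1-3p (control 7, 1.71 and 3008 CPM). The other arms, miR-539-3p and miR-1-5p, were highest in control 8 and CFA 3. RefSeq lacks the mature arm of both members, so their pairing was not measured. miR-3590-3p shared CFA 3 with miR-130a-3p (1.15 and 206 CPM), to which it is complementary over 4 bases. It is complementary to miR-130a-5p, highest in control 8, over 20 bases. miR-3546-5p, also without a RefSeq arm, shared control 1 with miR-208a-3p (2.01 and 0.447 CPM). For the 9 members that pair over 18 to 22 bases, the paired arm was highest in another library than the member. Raw counts were 0 to 7 for miR-3590-3p and 0 to 9 for miR-3546-5p, so their highest library is uncertain. No correlation between members and partners was computed.

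Of the other members opposite conserved families, miR-3570-5p lies across from miR-181a-1 and pairs with miR-181a-1-3p over 22 bases. It ran from 0 to 2.67 CPM in CFA (median 1.04) and from 0.59 to 4.70 CPM in controls (median 1.68), with a log2 fold change of -0.96 at an SE of 0.40 (edgeR adjusted p = 0.166), and of -0.53 without controls 1 to 3. miR-3587-5p, opposite miR-29b, averaged 0.695 CPM in CFA and 2.44 CPM in controls, and controls 1 to 3 were 5.95 times controls 4 to 10. With no filter its log2 fold change was -1.61 (SE 0.51, edgeR adjusted p = 0.0808). miR-3074-5p, opposite miR-24-1, averaged 2.20 CPM in CFA and 2.21 CPM in controls beside 12626 CPM for miR-24-1-3p over all libraries. miR-3574-3p, opposite miR-210, averaged 1.74 CPM in CFA and 2.58 CPM in controls. miR-3120-5p, opposite miR-214, averaged 0.887 CPM in CFA and 1.40 CPM in controls, and miR-3596a-5p, opposite let-7a, 0.602 CPM in CFA and 1.34 CPM in controls. miR-3546-3p, opposite the heart muscle miRNA miR-208a, averaged 0.683 CPM in CFA and 0.672 CPM in controls. The other members of this kind (miR-3065-3p, miR-3120-3p, miR-3546-5p, miR-3549-5p, miR-3553-5p, miR-3556a-5p, miR-3571-3p, miR-3590-3p and miR-3591-5p) averaged between 0.322 and 0.804 CPM in CFA and between 0.569 and 1.27 CPM in controls. The main fit tested none of these, nor miR-3587-5p, miR-3120-5p, miR-3596a-5p or miR-3546-3p.

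One annotated member has the seed of a conserved arm: miR-3065-5p, printed above, has the seed of miR-7a-1-3p, a passenger arm of the neuronal and endocrine miR-7 family.
miR-7a-1-3p: aCAACAAAucacagucugccau
miR-7a-1-3p averaged 14.2 ± 3.09 CPM in CFA and 11.1 ± 1.96 CPM in controls (log2 fold change 0.36, edgeR adjusted p = 0.166), and miR-3065-5p 5.37 ± 1.54 CPM in CFA and 5.13 ± 1.44 CPM in controls (log2 fold change 0.059, SE 0.21, edgeR adjusted p = 0.874). Among the members themselves, miR-3084a-5p has the seed of miR-3084c-5p, an arm at a mean of 0.0852 CPM that the count rule left out.

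Where both arms of a hairpin are counted, the choice of arm can be read within a library, which no scaling between libraries affects. Of 295 hairpins with at least 10 reads over both arms in every library, 21 were high-numbered. By a two-sided permutation test of the 5p share, adjusted over these hairpins, 0 of 295 were called (0%), among them 0 of the 21. An unadjusted p under 0.05 was found for 2 of the 21, against 46 of 295 (15.6%). Several high-numbered hairpins favoured 1 arm. The 5p share was 0.146% in CFA and 0.238% in control libraries for miR-3473, 88.7% in CFA and 92.7% in controls for miR-3572, and 73.7% in CFA and 74.8% in controls for miR-3559. miR-3068 was nearly balanced, with a 5p share of 55.8% ± 6.18 in CFA and 51.3% ± 3.28 in controls (SD, n = 10 each; permutation p = 0.054, adjusted p = 0.294).

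**Figure D5:**
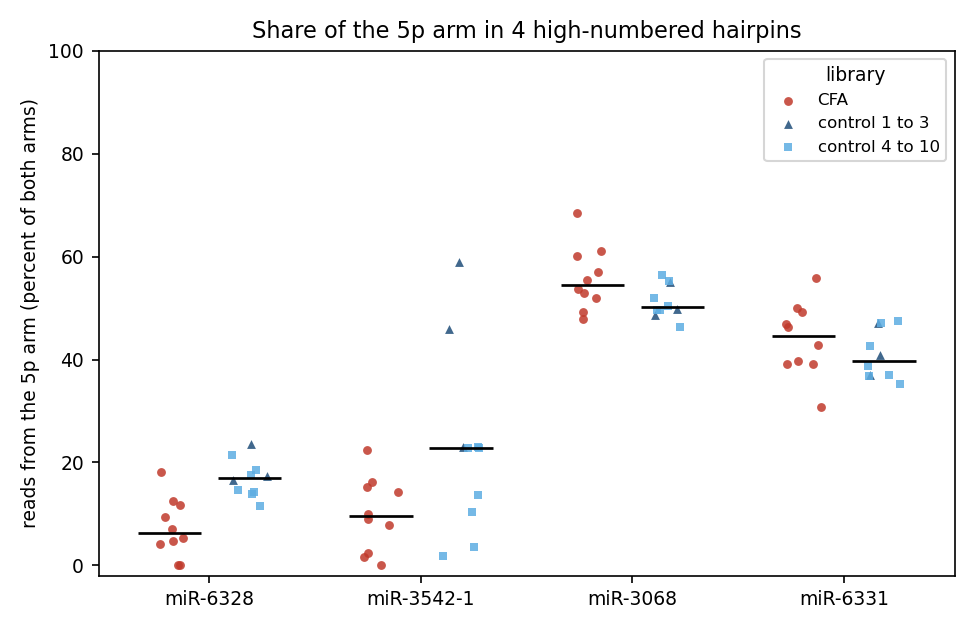
Percentage of reads from the 5p arm among reads of both arms for 4 high-numbered hairpins, 1 point per library, CFA left of control, with the median as a bar. For miR-6328, 7 of 10 CFA libraries lie below every control, and for miR-3542-1 controls 1 and 3 stand highest.

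miR-6328, from chromosome 20, had the smallest permutation p of all 295 hairpins. Its 5p share was 7.31% ± 5.75 in CFA and 16.9% ± 3.61 in control libraries (SD, n = 10 each), a difference of -9.64 percentage points (permutation p = 0.00039, adjusted p = 0.115). The share ran from 0% to 18.2% in CFA and from 11.5% to 23.5% in controls, with CFA 8 the highest CFA library and 7 of 10 CFA libraries below every control. Without CFA 8 it was the 1 hairpin of 295 called (0.339%), at a difference of -10.8 points (permutation adjusted p = 0.0147). That was the lowest value when single libraries were left out, where the permutation adjusted p ran up to 0.291. With controls 1 to 3 left out the difference was -8.67 points (permutation adjusted p = 0.495). The share rests on few reads, 17 to 76 over both arms and 0 to 7 from the 5p arm in a library. CFA 6 and CFA 9 had 0 5p reads beside 30 and 76 3p reads. Only the 3p arm is in RefSeq.
miR-6328-3p: aGGCCUGCucugagcccccgc
The level of this 3p arm did not separate the groups, with a log2 fold change of 0.068 (SE 0.21). Its medians were 4.33 CPM in CFA and 4.40 CPM in controls. The rarer miR-6328-5p averaged 0.342 CPM in CFA and 0.858 CPM in controls, and 8 of 10 CFA libraries lay below every control. The main fit did not test it. With no filter its log2 fold change was -1.23 (SE 0.44, edgeR adjusted p = 0.0887).

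miR-3542-1 had a 5p share of 9.90% ± 7.26 in CFA and 22.6% ± 17.9 in control libraries (permutation p = 0.0438, adjusted p = 0.294), with controls 1 and 3 at 46.0% and 58.97%. With those 3 left out the difference was -4.11 percentage points, against -12.7 with them.

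The count rule had a narrow edge. The member just inside it was miR-3546-5p, with at least 5 reads in 5 libraries, a mean of 0.548 CPM and counts of 0 to 9, and 8 further members reached 6 libraries. The 7 arms just outside, at 4 libraries, averaged between 0.319 and 0.548 CPM. They were miR-3074-3p, miR-3556b-1-3p, miR-3566-3p, miR-3568-5p, miR-3578-3p, miR-3588-5p and miR-5132-3p. At the other end, 35 members reached 5 reads in all 20 libraries. The 64 members outside the fit include miR-3578-5p and miR-3576-5p, named after their values were seen. miR-3578-5p stood at 13.2, 4.84 and 12.3 CPM in controls 1, 2 and 3, between 0.393 and 1.11 CPM in controls 4 to 10, and between 0 and 2.67 CPM in CFA libraries. miR-3576-5p stood at 12.5, 4.06 and 8.86 CPM in controls 1, 2 and 3, between 0.393 and 0.721 CPM in controls 4 to 10, and between 0 and 5.11 CPM in CFA. Controls 1 and 3 were the highest libraries for both arms.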

How the data were processed

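Small RNA libraries were used, made with a NEBNext multiplex small RNA kit per the labels' protocols. Per the file headers, the deposited files hold raw counts per miRNA feature (439 hairpins and 879 arms). Tools listed without roles in the submitters' processing notes include STAR 2.7.0, cutadapt 2.1.0 and DESeq2 1.29.0, and the listed build is rn4. The sources used here do not say how reads shared by copies or strands were counted.

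CFA was compared with control in R 4.3.3 by edgeR 4.0.16 (quasi-likelihood F test, robust, TMM factors, filterByExpr) on arms and hairpins together, Benjamini-Hochberg threshold 0.05. Conserved arms are those of 109 listed families, 108 of which had a feature. The 5p share used permutation tests with 100000 resamples. The mRNA and bisulfite files were not used. P-values measure the spread between libraries, and the labels do not say how many rats each holds. Counting error alone limits arms of few reads. Tests were checked on simulated data.

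The members and lists were chosen with earlier results of these data known. Members named are the 10 most abundant, any called, the 5 with the smallest p in each direction at 2 CPM or more, and those opposite a conserved hairpin or with a conserved seed. Others are said to be named after their values were seen. Alternatives were RLE and upper-quartile factors, scaling to conserved arms, arms only, other filters, DESeq2 1.42.0, a replicate block, sample quality weights (limma 3.58.1) and leaving out libraries.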

Additional observations from a re-analysis of the deposited data

Results flagged for a closer look

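In 38 groups of 10 libraries checked, 8 values of the named members and their sum were flagged. Their gap to the next library was large beside the group's range, a pattern chance gives in about 1 in 20 groups. The 38 groups share the same libraries and are not independent, so the 8 cannot be set against that rate. CFA 8 was lowest for miR-6331-5p, at 34.3 CPM with the next at 65.0, and highest for miR-6323-5p, at 46.3 CPM with the next at 26.4. CFA 1 was highest for miR-3543-1-5p, at 6.35 CPM with the next at 2.71, and for miR-6327-5p, at 5.01 CPM with the next at 2.77. CFA 3 was lowest for the summed members, at 719.6 CPM of the conserved counts with the next CFA library at 990.5. Control 7 was highest for miR-3473-3p, at 89.4 CPM with the next at 49.9. Control 1 was highest for miR-3072-3p, at 18.6 CPM with the next at 13.6, and for miR-6323-3p, at 29.1 CPM with the next at 13.2.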

How the results depend on the processing

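No high-numbered arm was called in any of the 16 other settings or the 20 fits that left out 1 library. The number of features called, 0 with all libraries, was 4 with upper-quartile factors and with sample quality weights, 32 with DESeq2, and 0 to 7 when single libraries were left out (7 without CFA 8 or control 10, 6 without control 9, 3 without CFA 6, 2 without control 4, 1 without CFA 5). The labels speak of 10 pairs of rats without tying a library number to a pair, and the counts did not settle it: the deviations of same-numbered libraries correlated between -0.416 and 0.605, above 0.1 for 5 of 10 numbers, and 2 of 10 matched best with their own. With the replicate number as a block, 12 features were called and 0 members. The members' median log2 fold change of -0.13 was -0.28 with upper-quartile factors, 0.023 without controls 1 to 3, 0.024 without these and CFA 8, 9 and 10, and -0.23 to -0.09 when single libraries were left out. The summed level as CPM of the conserved counts kept its direction throughout, with differences of -294 to -143 when single libraries were left out (-143 without control 1). For the 5p share, 1 hairpin was called without CFA 8 and 0 to 1 over the single left-out libraries. Of 21 named members in the fit, 10 kept their direction in every setting. With scaling to conserved arms by TMM, miR-3068-5p, miR-3473-3p, miR-6331-3p and miR-3065-5p turned to -0.019, -0.11, -0.038 and -0.071, with library sizes of conserved arms to -0.028, -0.14, -0.038 and -0.066, and with upper-quartile factors to -0.062, -0.16, -0.085 and -0.12. With arms only, miR-3473-3p was at -0.075 and miR-3065-5p at -0.026, and with sample quality weights at -0.15 and -0.12. miR-3473-3p was at -0.021 with RLE factors and -0.022 with DESeq2. With no filter, miR-3068-3p, miR-3559-3p and miR-3074-5p were at 0.035, 0.039 and 0.14. Without controls 1 to 3, miR-6322-3p and miR-6323-3p were at 0.54 and 0.33 and miR-3065-5p at -0.052; also without CFA 8, 9 and 10, they were at 0.43, 0.60 and -0.21, and miR-3543-1-5p at 0.25, and miR-3065-5p was at -0.081 without CFA 8, 9 and 10 alone. The next settings were chosen after seeing the data. Without controls 1 to 3, arms only gave 0.50 for miR-6322-3p, 0.29 for miR-6323-3p, -0.14 for miR-3065-5p, -0.042 for miR-3473-3p and -0.0083 for miR-6324-5p, and scaling to conserved arms gave 0.50, 0.31, -0.14, -0.043 and -0.013. Without controls 1 to 3, CFA 1 and CFA 8, miR-6323-3p was at 0.14. When single libraries were left out, miR-3065-5p ranged from -0.018 to 0.13, miR-3074-5p from -0.12 to 0.13 and miR-3473-3p from -0.074 to 0.19. The cause of these moves was not tested. Arms below about 1 CPM rest on few reads a library.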
